A study of Saccharomyces cerevisiae with 18 samples.

Results

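Between 20 and 40 min after budding yeast were moved into medium without added potassium, the ratios of genes for stress protection and reserve carbohydrates lay higher at the later time, and those of genes for ribosome assembly and histones lay lower. These are shifts of groups of genes: no single gene passed the test of the difference. The groups are lists chosen with earlier results of these data known, and shifts of whole lists were not tested. The comparison is the difference, gene by gene, between the 4 arrays taken at 40 min and the 4 arrays taken at 20 min, which are 8 of the 18 arrays in the series. Each array carried RNA from potassium-free cells and from KCl cells in 2 dyes, so a value here is the potassium-free level divided by the KCl level on 1 array, as a log2. A difference of 1 between times is then a 2-fold higher ratio at the later time. A gene entered the comparison with values on at least 3 of the 4 arrays at both times, which left 4237 of the 6212 genes in the table, and 3206 of them had values on all 8 arrays.

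All cultures were wild-type BY4741, a haploid laboratory strain of mating type a that lacks HIS3, LEU2, MET17 and URA3. They grew at 28 °C to an absorbance of 0.6 and were then moved to Translucent medium, a defined medium with about 15 µM residual potassium, either as it is or with 50 mM KCl. The groups used here are potassium-free over KCl after 20 min and potassium-free over KCl after 40 min, each with 2 independent experiments and a dye swap of each. The KCl culture went through the same change of medium, so what both cultures share does not show in a ratio. All cells lack MET17, the enzyme that fixes sulfide into homocysteine, in both arms, and the tables held values for MET17 on 2 of the 8 arrays, LEU2 on 2, URA3 on 6 and HIS3 on 8. What the spots of these 4 genes measured was not tested. Of the a-specific genes checked, STE2, MFA2, BAR1, AGA2 and STE6 had values on all 8 arrays and MFA1 on 1, while of the alpha-specific genes STE3 had a value on 1 array, MF(ALPHA)2 on 5 and MF(ALPHA)1 on none. In bulk RNA, fewer cells of a kind and less RNA per cell cannot be told apart.

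Yeast takes up potassium through the plasma membrane transporters Trk1 and Trk2, driven by the proton pump Pma1. Cells facing many kinds of stress share a general response: the transcription factors Msn2 and Msn4 switch on genes for protein folding, trehalose and glycogen, and redox defence, while genes for making ribosomes are switched off. Ribosome assembly factors and ribosomal proteins are controlled separately, and histone genes are transcribed in S phase.

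The arrays at 40 min were wider in spread and more alike than those at 20 min. The standard deviation over genes was 0.384 to 0.555 per array at 20 min and 0.612 to 0.905 at 40 min. Taken over genes, the correlation of 2 arrays of the same time was r = 0.229 to 0.644 for 20 min and 0.607 to 0.853 for 40 min, and genes are not independent replicates. Arrays 1 and 2 of a time held values for fewer genes (3998 and 4024 at 20 min, 4366 and 4493 at 40 min) than arrays 3 and 4 (5173 to 5372 over both times).

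Which functions begin to respond in this step was asked by the difference itself. No gene passed an adjusted p of 0.05 in limma with each dye-swap pair averaged to 1 experiment, which gives 2 experiments per time, and the smallest adjusted p was 0.295, shared by 12 genes. At an unadjusted p under 0.05 there were 225 genes with a higher ratio at 40 min (5.31% of those tested) and 180 with a lower one (4.25%). Differences are therefore given below as values with the standard error (SE) of the fit, and none of them is a call. When each array entered the fit and the experiment was a random block, 59 genes passed, 43 higher (1.01%) and 16 lower (0.378%). That fit treats dye swaps of the same RNAs as partly separate values, with 1 correlation of 0.262 for all genes. An adjusted p given below with the random block is therefore not a call either. The pairing of arrays into experiments is not stated: with array 1 paired with 3 and 2 with 4, 302 genes passed, 152 higher and 150 lower.

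Each time was also tested against 0. At 20 min 23 genes passed an adjusted p of 0.05, 21 higher in potassium-free cells (0.496%) and 2 lower (0.0472%). At 40 min 446 passed, 262 higher (6.18%) and 184 lower (4.34%). All 23 of the earlier genes were among them with the same sign, and 241 higher (5.69%) and 182 lower genes (4.3%) passed at 40 min and not at 20 min, which does not show that they differ between the times. Without experiment A at 40 min 27 genes passed at 40 min, and without experiment B 48. The counts depend on scaling: with arrays brought to the same spread 341 genes passed at 20 min (178 higher, 163 lower) and 732 at 40 min (373 higher, 359 lower), and with quantile normalization 436 (209 higher, 227 lower) and 794 (389 higher, 405 lower).

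A count that needs no test is how many genes had their arrays at 40 min entirely above or below their arrays at 20 min. Here and below, an array without a value for a gene was left out for that gene. The arrays of a time come from 2 experiments with a dye swap of each, so they are not independent of each other. Such a count therefore describes the arrays, and the share that chance would give was not tested. There were 293 with 40 min entirely higher (6.92%) and 348 with it entirely lower (8.21%). The difference was at least 1 in 112 genes, of which 77 did not overlap, and -1 or less in 133, of which 113 did not overlap. Over all genes the median difference was 0.03, with 53% above 0 and 47% below. The experiments differed: the differences of experiment A and of experiment B correlated across genes with r = 0.520.

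**Figure D1:**
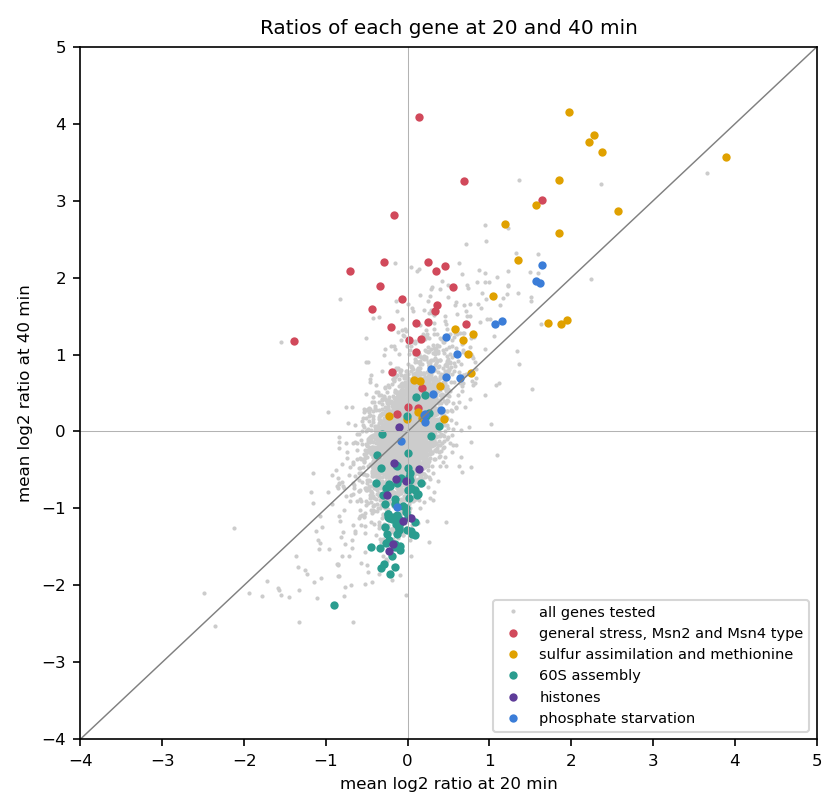
Mean log2 ratio (potassium-free over KCl) of each of 4237 genes at 20 min on the horizontal axis and at 40 min on the vertical axis, with 5 gene lists in colour and the line of equal ratios in grey. General stress genes lie near 0 at 20 min and above the line, 60S assembly genes and histones lie near 0 at 20 min and below it, and sulfur and phosphate genes already lie to the right of 0.

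General stress genes had ratios near 0 at 20 min and clearly above it at 40 min. Of the 36 genes listed as targets of the Msn2 and Msn4 type, 28 were tested, and all 28 had a higher mean ratio at 40 min, with a median difference of 1.35 beside 0.03 for all genes. In 15 of them the 40 min arrays lay entirely above the 20 min arrays, against 6.92% of all genes, and in 0 entirely below. None passed the test at 20 min, and 21 were higher in potassium-free cells at 40 min, against 6.18% of all genes. Array by array, the median of the list was 0.36, 0.23, -0.23 and 0.02 at 20 min and 1.77, 2.12, 1.41 and 0.68 at 40 min. Array 4 of 40 min was the lowest of its time and lay above all arrays of 20 min. With the times matched by letter alone, the median difference was 1.48 in experiment A and 1.25 in experiment B.

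NQM1 encodes a transaldolase, an enzyme of the pentose phosphate pathway, and had the largest difference of all genes tested. Its ratios were -0.40, -0.50, 0.10 and 1.36 at 20 min and 5.18, 5.10, 3.49 and 2.57 at 40 min. All arrays of 40 min lay above those of 20 min, the difference was 3.94 ± 0.70 (SE), and its adjusted p was 0.295, or 0.00924 with the random block. If the values are log2, this is a 15.4-fold higher ratio at the later time. ALD3 and ALD2 are neighbouring, closely similar cytoplasmic aldehyde dehydrogenase genes, whose spots may share signal. ALD3 gave -0.15, -0.11 and -0.24 on the 3 arrays with a value at 20 min and 3.78, 3.79, 2.21 and 1.47 at 40 min, a difference of 2.97 ± 0.62. ALD2 gave -0.07, -0.31, -0.33 and 0.08 and then 2.82, 3.24, 1.46 and 1.25, a difference of 2.35 ± 0.53. In both, experiment A stood above experiment B at 40 min, and both experiments stood above all arrays of 20 min.

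TFS1, an inhibitor of the vacuolar carboxypeptidase Y, lay below 0 and then above it on every array, with -0.37, -0.73, -0.88 and -0.85 at 20 min and 2.83, 3.05, 1.80 and 0.66 at 40 min. Its difference was 2.79 ± 0.53 (adjusted p = 0.295, and 0.00924 with the random block). HSP12, a small membrane-associated stress protein, was below 0 on every array at 20 min (-1.53, -2.33, -0.47 and -1.21) and above 0 on every array at 40 min (1.75, 2.09, 0.81 and 0.04). Its lowest value at 40 min was close to 0, its difference was 2.56 ± 0.95, and its mean at 40 min did not pass the test against 0 (adjusted p = 0.293). GAD1, the glutamate decarboxylase, had the same pattern, with -0.14, -0.42, -0.64 and -0.53 at 20 min and 2.26, 2.62, 1.23 and 0.26 at 40 min, and a difference of 2.02 ± 0.51. MSC1, a gene named for meiotic recombination between sister chromatids, went from a mean of -0.29 to 2.21, a difference of 2.49 ± 0.75. At 40 min its values in experiment A were 3.49 and 3.71 and in experiment B 1.21 and 0.42, so the experiments lay further apart than in NQM1. GOR1, a glyoxylate reductase, had means of 0.04 and 2.14, a difference of 2.11 ± 0.54. GRE1, a hydrophilin of the same response, had no value at 20 min and was not tested.

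**Figure D2:**
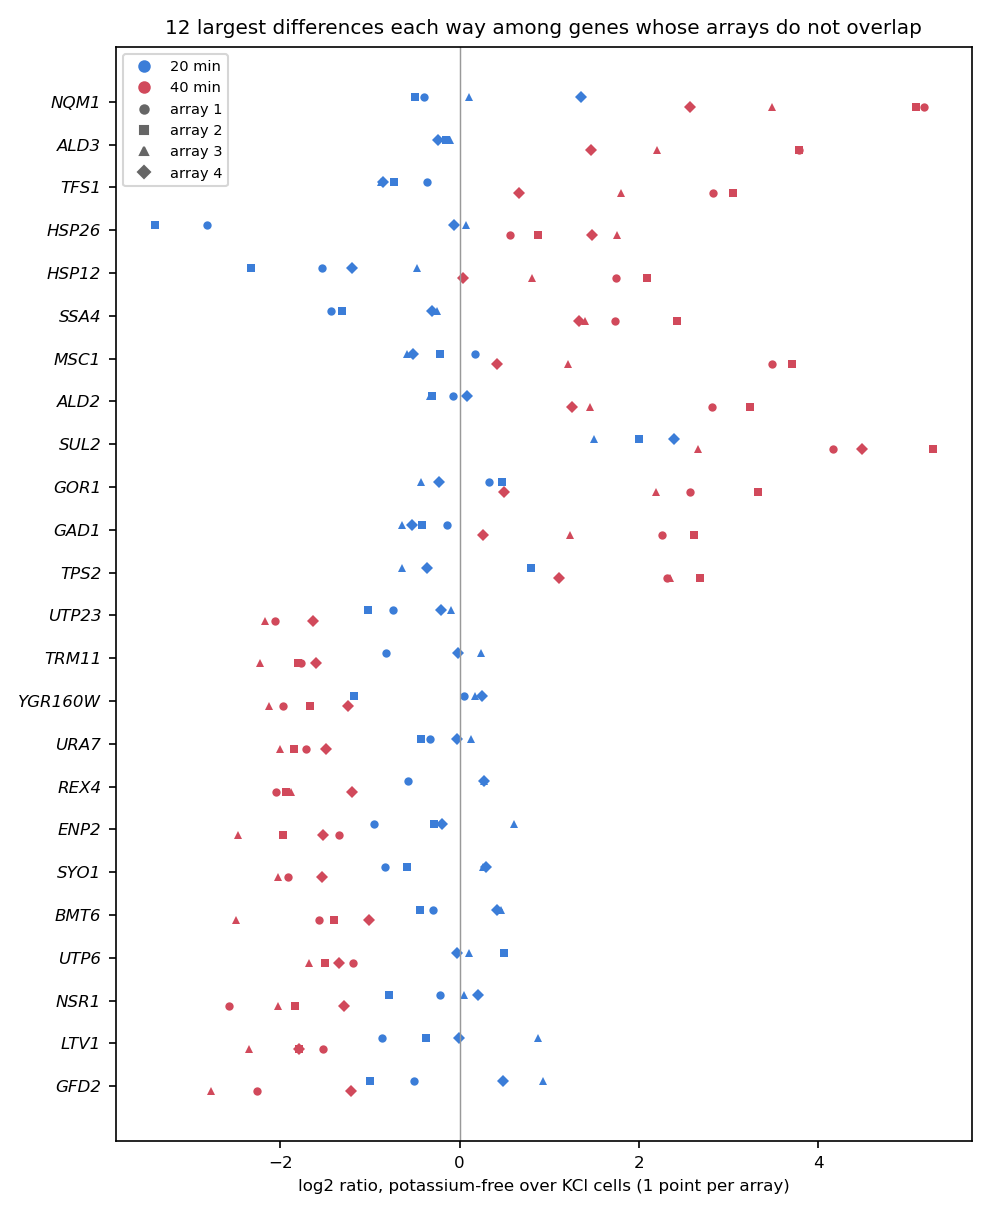
Log2 ratio (potassium-free over KCl) on each array, with 20 min in blue and 40 min in red and 1 symbol per array number, for the 12 highest and 12 lowest differences among genes whose arrays do not overlap between the times. NQM1 lies between -0.50 and 1.36 at 20 min and between 2.57 and 5.18 at 40 min, and the lower 12 genes lie between -1.17 and 0.94 at 20 min and at -1.01 or below at 40 min.

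Genes for the reserve carbohydrates trehalose and glycogen had differences about as large as the stress genes. Of 15 tested of 21, 13 had a higher mean ratio at 40 min, the median difference was 1.39, and in 6 the 40 min arrays lay entirely higher, against 6.92% of all genes. At 40 min 10 were higher in potassium-free cells, against 6.18%. The list median per array was 0.46, 0.52, -0.53 and -0.37 at 20 min and 1.99, 1.81, 1.30 and 0.51 at 40 min, so that at 20 min experiment A lay above 0 and experiment B below it, and the times overlapped. TPS2, the phosphatase that completes trehalose synthesis, gave 0.79, -0.65 and -0.37 on the 3 arrays with a value at 20 min and 2.31, 2.68, 2.35 and 1.10 at 40 min, a difference of 1.97 ± 0.47. GDB1, the glycogen debranching enzyme, was below 0 on all arrays at 20 min (-0.33, -0.10, -0.34 and -0.62) and above 0 on all at 40 min (2.17, 2.50, 1.13 and 0.16), a difference of 1.84 ± 0.51. PGM2, phosphoglucomutase, which feeds both pathways, overlapped between the times: it gave 1.09, 1.01, -0.76 and -0.89 and then 2.87, 3.34, 1.68 and 0.47. Among genes for glycerol, DAK1, dihydroxyacetone kinase, lay near 0 at 20 min (-0.03, -0.15, 0.05 and -0.10) and gave 1.33, 1.49, 1.34 and 0.86 at 40 min. GCY1, an NADP-dependent glycerol dehydrogenase, was already at a mean of 1.65 at 20 min and reached 3.02, with arrays that overlapped. GLK1, a glucokinase, had means of 0.29 and 1.88 and also overlapped.

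Chaperone genes as a group lay about 0 at 20 min, and the largest differences came from members below 0 at that time. Of 22 heat shock genes tested of 28, 20 had a higher mean at 40 min with a median difference of 0.60. In 7 the 40 min arrays lay entirely higher, against 6.92% of all genes, and in 1 entirely lower, against 8.21%. At 40 min 4 were higher in potassium-free cells, against 6.18%. HSP26, a small chaperone that holds unfolded proteins, gave -2.82, -3.40, 0.07 and -0.06 at 20 min and 0.56, 0.87, 1.76 and 1.47 at 40 min. Its values in experiment A at 20 min were far below those in experiment B, and its difference was 2.72 ± 0.88 (adjusted p = 0.424). SSA4, a stress-inducible Hsp70, gave -1.44, -1.32, -0.25 and -0.31 and then 1.73, 2.43, 1.40 and 1.33, a difference of 2.55 ± 0.43 with all arrays below 0 and then above it. HSP104, the disaggregase, gave -0.01, 0.14, -0.68 and -1.16 and then 2.07, 1.83, 1.56 and 0.46, a difference of 1.91 ± 0.42.

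Proteolysis genes had smaller differences. Of 9 genes for autophagy and vacuolar proteases tested of 20, 8 were higher at 40 min by their means, with a median of 0.50. In 3 the 40 min arrays lay entirely higher, against 6.92% of all genes. APE1, a vacuolar aminopeptidase, gave 0.23, -0.11, -0.18 and -0.48 at 20 min and 1.97, 2.24, 1.28 and 0.80 at 40 min, a difference of 1.70 ± 0.36. PRB1, the vacuolar protease B, had a difference of 1.36 ± 0.38. Proteasome subunits had small differences in one direction: 30 of 32 tested lay higher at 40 min, where the share over all genes was 53%, the median was 0.38, and none passed the test at either time. The median difference of the proteasome list was 0.13 over arrays with potassium-free RNA in Cy5 and 0.67 over arrays with it in Cy3. The median of all genes shifted with the dye in the same direction, as given below for the redox genes.

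Redox and respiratory genes had larger differences on the arrays with potassium-free RNA in Cy3 than on those with it in Cy5. Of 31 redox defence genes tested of 32, 24 had a higher mean at 40 min, with a median of 0.27. In potassium-free cells at 40 min 9 were higher and 1 lower, against 6.18% and 4.34% of all genes. Within arrays with potassium-free RNA in Cy5 the median difference was -0.05, and within those with it in Cy3 0.66. For the respiratory chain and ATP synthase, 31 of 32 tested lay higher with a median of 0.37, which was 0.00 in the Cy5 and 0.74 in the Cy3 orientation. The median of all genes also went with the dye. With potassium-free RNA in Cy5 it was 0.16 and 0.03 on the 20 min arrays and -0.12 and -0.01 at 40 min. With it in Cy3 it was -0.10 and -0.01, then 0.18 and 0.08. Part of the gap between the dyes is therefore common to all genes. CTT1, the cytosolic catalase, gave 1.13, 0.64, -0.41 and 0.03 at 20 min and 2.13, 2.86, 2.28 and 1.11 at 40 min, and the times overlapped by little. TSA2, a peroxiredoxin, gave 0.55, 0.00, 0.13 and 1.02 and then 1.90, 2.57, 1.79 and 1.58, a difference of 1.53 ± 0.33 without overlap. QCR10, a subunit of the cytochrome bc1 complex, had a difference of 1.73 ± 0.48. SOL4, a 6-phosphogluconolactonase of the pentose phosphate pathway, had means of -0.34 and 1.89 with overlapping arrays. RCN2, a regulator of calcineurin, gave -0.24, 0.47, -0.30 and -0.21 and then 1.23, 1.59, 1.29 and 1.16, a difference of 1.39 ± 0.32.

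Sulfate assimilation had already responded at 20 min, and at 40 min part of its genes lay higher still. Of 28 sulfur genes tested of 29, 11 were higher in potassium-free cells at 20 min and 20 at 40 min, none lower. The shares of all genes that were higher were 0.496% and 6.18%. The list median per array was 1.33, 1.02, 0.83 and 1.13 at 20 min and 1.34, 1.52, 1.39 and 1.77 at 40 min, and the median difference was 0.49. That difference was 0.16 over arrays with potassium-free RNA in Cy5 and 0.70 over those with it in Cy3. Over genes with values on all 4 arrays at both times it was 0.29. In 9 genes the 40 min arrays lay entirely higher, against 6.92% of all genes. The sign of this difference depends on scaling: with the arrays brought to the same spread the median was -0.09 and with quantile normalization -0.06, while the stress list stayed at 1.29 and 1.43. Both scalings enlarge the ratios of the narrower 20 min arrays relative to those of 40 min. They therefore cannot decide the sign for genes that already stood away from 0 at 20 min.

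SUL2, a sulfate permease, gave 2.01, 1.50 and 2.40 on the 3 arrays with a value at 20 min and 4.17, 5.28, 2.66 and 4.49 at 40 min, a difference of 2.17 ± 0.65. MET3, ATP sulfurylase, which activates sulfate, gave 2.53, 2.37, 1.50 and 2.72 and then 3.72, 5.05, 3.00 and 3.65, and MET14, the kinase of the next step, had means of 2.22 and 3.76. MET16, which reduces the activated sulfate to sulfite, was even across arrays, with 1.73, 1.87 and 2.09 on the 3 arrays with a value at 20 min and 3.12, 3.52, 3.31 and 3.13 at 40 min. Its difference of 1.41 ± 0.23 was among the 12 at the smallest adjusted p, as were those of the sulfite reductase subunits MET5 (1.37 ± 0.22) and MET10 (1.52 ± 0.25). MET5 gave 1.19, 1.81, 1.35 and 1.94 and then 3.10, 2.82 and 2.74 on the 3 arrays with a value, without overlap. After scaling to the same spread the differences of MET3, MET14 and MET16 were -0.15, -0.36 and -0.36. MET28, a regulator of the pathway, had means of 2.37 and 3.64 and a difference of 1.27 ± 0.24, or -0.29 after that scaling. Genes of a later step and of the uptake of organic sulfur compounds had means at 40 min no higher than at 20 min. STR3, cystathionine beta-lyase, gave 3.46, 3.24, 3.54 and 5.31 at 20 min and 3.49, 3.61, 2.33 and 4.82 at 40 min, a difference of -0.32 ± 0.34. The permeases for S-adenosylmethionine (SAM3), S-methylmethionine (MMP1) and methionine (MUP1) all passed at both times, with differences of -0.49 ± 0.22, -0.49 ± 0.30 and -0.31 ± 0.28. MET1, needed for the sulfite reductase cofactor siroheme, had 0.29 ± 0.29, which became -1.62 after scaling.

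Both genes for the first step of serine synthesis had arrays that did not overlap between the times. SER3 and SER33 encode isozymes of the enzyme that draws serine from glycolysis, and their spots may share signal. SER3 gave 0.81, 1.12, 1.50 and 1.99 at 20 min and 2.85, 3.00, 4.12 and 3.13 at 40 min, a difference of 1.92 ± 0.35 with an adjusted p of 0.295, or 0.00924 with the random block. SER33 gave 0.81, 0.84 and 0.95 on the 3 arrays with a value and then 1.71, 1.96, 2.11 and 2.02, a difference of 1.10 ± 0.23. CHA1, which breaks serine and threonine down, was lower in potassium-free cells at both times (-1.55 and -2.13), with overlapping arrays and a difference of -0.58 ± 0.31, or 0.71 after scaling. NCE103, carbonic anhydrase, gave 1.50, 1.36, 1.10 and 0.96 and then 2.56, 2.78, 2.96 and 2.31, a difference of 1.42 ± 0.27, with an adjusted p of 0.00924 with the random block. After scaling to the same spread the differences of SER3, SER33 and NCE103 were 0.66, 0.30 and 0.51. Over the 17 serine, glycine and one-carbon genes tested the median difference was 0.21. In 5 the 40 min arrays lay entirely higher, against 6.92% of all genes.

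Phosphate starvation and retrograde genes, some of which passed early, had small differences. Of 17 phosphate genes tested of 23, 3 passed as higher at 20 min, against 0.496% of all genes. At 40 min 9 did, against 6.18%. The median difference was 0.24, and in 1 the 40 min arrays lay entirely higher, against 6.92% of all genes. PHO84, the high-affinity phosphate transporter, gave 1.33, 0.96, 1.18 and 1.13 at 20 min and 1.28, 1.34, 1.50 and 1.66 at 40 min, and these overlap. The acid phosphatases PHO5, PHO11 and PHO12, of which PHO11 and PHO12 are near-identical copies, had differences of 0.53 ± 0.46, 0.38 ± 0.29 and 0.31 ± 0.26. With arrays scaled to the same spread the median of the phosphate list was -0.29, and with quantile normalization -0.31. These scalings cannot decide its direction, for the reason given for the sulfur list. Within arrays with potassium-free RNA in Cy5 the median was -0.03 and within those with it in Cy3 0.42, so the direction stays unsettled. CIT2, peroxisomal citrate synthase and the standard reporter of the retrograde response from mitochondria to nucleus, gave 3.64, 3.49, 3.92 and 3.59 and then 3.12, 3.69, 2.80 and 3.83, a difference of -0.30 ± 0.35. DLD3, another target of that response, had a difference of -0.25 ± 0.42, and PYC1, pyruvate carboxylase, had 0.92 ± 0.34, or -0.14 after scaling. YRO2, a membrane protein gene, passed at both times with 2.77, 2.58, 2.02 and 2.07 and then 3.29, 3.32, 2.85 and 3.39, and its difference of 0.86 ± 0.26 became -0.85 after scaling. ICY1 and YLR108C passed at both times as well, with differences of 0.72 ± 0.32 and -0.23 ± 0.29.

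Genes for potassium, sodium and proton transport had a median difference of 0.08 over 11 tested of 23. In 3 the 40 min arrays lay entirely higher, against 6.92% of all genes, in 0 entirely lower, and 1 passed at 40 min, against 6.18%. TRK1, the main potassium transporter, gave -0.55, -0.26, 0.17 and -0.03 at 20 min and 0.08, -0.26 and -0.25 on the 3 arrays with a value at 40 min, a difference of 0.08 ± 0.27. PMA1, the proton pump, gave 0.62, 0.54, 0.47 and 0.31 and then 0.48, 0.28, -0.08 and 0.40, a difference of -0.21 ± 0.37. PTK2, a kinase that activates Pma1, was the member past the test at 40 min, with 0.87, 0.44, -0.21 and 0.19 and then 1.50, 1.73, 1.43 and 1.01 and a difference of 1.09 ± 0.32. TRK2 and the sodium exporter gene ENA1 had too few values to be tested.

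**Figure D3:**
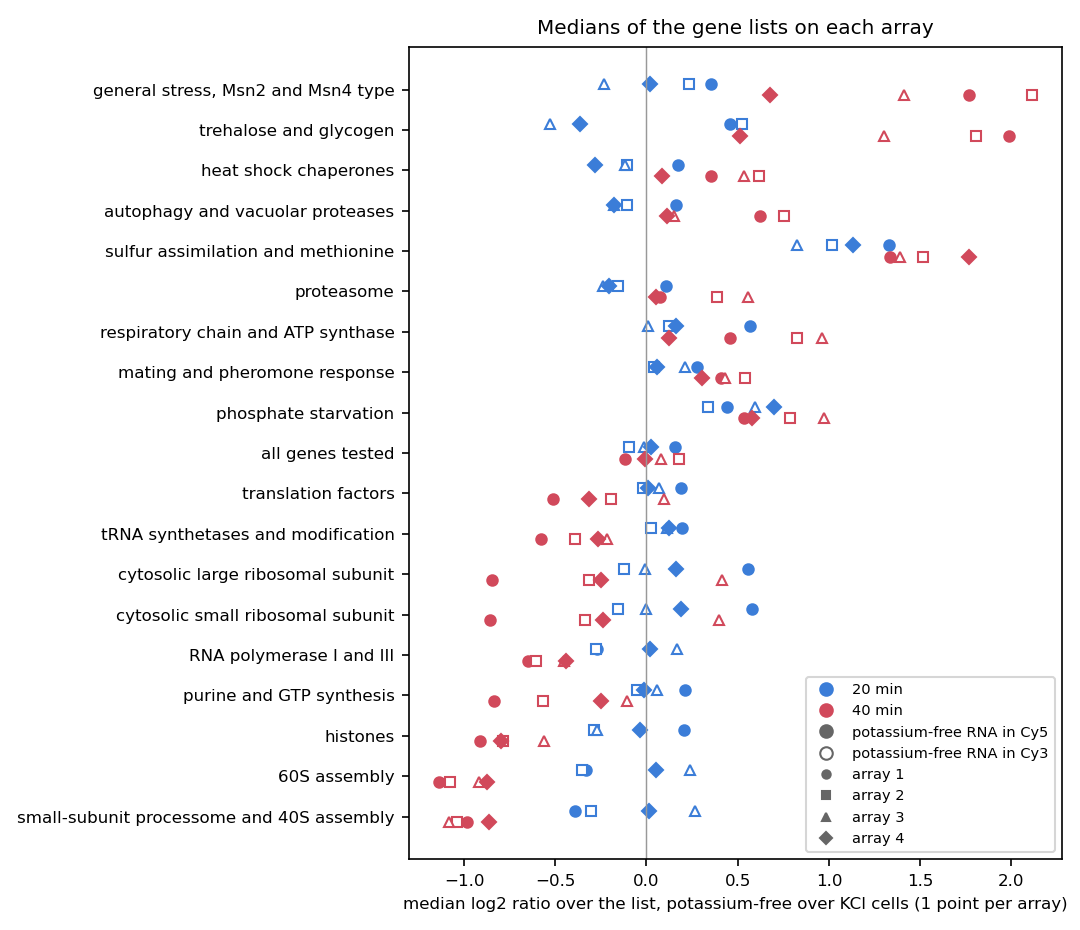
Median log2 ratio (potassium-free over KCl) of each gene list on each array, with 20 min in blue and 40 min in red, filled symbols for potassium-free RNA in Cy5 and open symbols for Cy3. The medians of both ribosome assembly lists lie between -0.39 and 0.27 at 20 min and between -1.14 and -0.87 at 40 min, while those of the ribosomal proteins spread from -0.86 to 0.41 at 40 min.

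Ribosome assembly genes had list medians around 0 at 20 min and well below 0 on every array at 40 min. Of 60 genes of the small-subunit processome and 40S assembly tested of 68, 55 had a lower mean at 40 min, and the median difference was -0.96. In 37 the 40 min arrays lay entirely lower, against 8.21% of all genes, and in 1 entirely higher. The list median per array was -0.39, -0.30, 0.27 and 0.02 at 20 min and -0.98, -1.04, -1.08 and -0.87 at 40 min, with no overlap. For 60S assembly, 68 of 73 tested had a lower mean, the median difference was -0.91, and 46 lay entirely lower. At 20 min none of either list passed the test, and at 40 min 18 and 18 were lower in potassium-free cells, with 1 and 0 higher. The shares over all genes at 40 min were 4.34% lower and 6.18% higher. With the times matched by letter alone, the median differences were -0.66 and -0.66 in experiment A and -1.09 and -1.04 in experiment B. They ranged from -1.09 to -0.77 and from -1.001 to -0.79 over the scalings and dye orientations.

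NSR1, the yeast nucleolin, needed for pre-rRNA processing, gave -0.22, -0.79, 0.04 and 0.20 at 20 min and -2.58, -1.84, -2.02 and -1.29 at 40 min, a difference of -1.74 ± 0.57. LTV1, which helps the small subunit out of the nucleus, gave -0.87, -0.37, 0.87 and -0.01 and then -1.53, -1.79, -2.36 and -1.79, a difference of -1.77 ± 0.61. Its 20 min arrays lay on both sides of 0 and its 40 min arrays below all of them. UTP6, a processome subunit, had a difference of -1.70 ± 0.63, ENP2, a nucleolar protein of 40S synthesis, -1.62 ± 0.56, and UTP23, a further processome protein, -1.46 ± 0.46. On the large-subunit side, NOG2, a GTPase of late 60S assembly, gave -0.24, -0.62, 0.41 and 0.09 at 20 min and -1.33, -1.80, -1.63 and -1.41 at 40 min, a difference of -1.45 ± 0.29 and an adjusted p of 0.0147 with the random block. SYO1, which escorts ribosomal proteins of the 5S particle into the nucleus, gave -0.83, -0.59, 0.26 and 0.29 and then -1.92, -2.03 and -1.54 on the 3 arrays with a value, a difference of -1.63 ± 0.37. BMT6, an rRNA methyltransferase of the large subunit, gave -0.29, -0.45, 0.47 and 0.41 and then -1.58, -1.40, -2.50 and -1.01, a difference of -1.66 ± 0.34. REX4, a putative exonuclease of pre-rRNA processing, had -1.61 ± 0.68. In each of these genes the values of experiment B at 20 min lay at or above those of experiment A, except in UTP6.

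The polymerases that make rRNA and tRNA had smaller differences of the same sign. Of 21 subunits of RNA polymerases I and III tested of 27, the median difference was -0.45, 9 lay entirely lower at 40 min, against 8.21% of all genes, and 3 passed as lower at 40 min, against 4.34%. RPA43, a polymerase I subunit, had means of -0.14 and -1.53. RPA135, its second-largest subunit, gave -0.38, -0.43, 0.19 and -0.18 at 20 min and -1.50, -1.41, -1.08 and -1.09 at 40 min, a difference of -1.07 ± 0.44. tRNA synthetases and tRNA modification enzymes had a median difference of -0.40 over 38 tested, with 12 entirely lower, against 8.21% of all genes. TRM1, a tRNA methyltransferase, went from -0.08 to -1.29. TOD6, a repressor that binds the promoters of ribosome assembly genes, had low ratios itself, with -1.79, -1.85 and 0.48 on the 3 arrays with a value at 20 min and -2.51, -3.27 and -1.59 on the 3 arrays with a value at 40 min, where experiments at 20 min disagreed in sign.

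Ribosomal protein genes differed from the assembly genes in how far the arrays agreed. The median difference was -0.40 over 76 tested of 81 for the large and -0.43 over 47 of 57 for the small subunit, and 72 and 45 lay below 0. Yet the 40 min arrays lay entirely lower in 1 and 1 gene each, against 8.21% of all genes. None passed the test at 20 min, and 0 and 1 passed as lower at 40 min, against 4.34%. Array by array, the median of the large subunit was 0.56, -0.13, -0.01 and 0.16 at 20 min and -0.84, -0.31, 0.41 and -0.25 at 40 min. Array 1 was the highest at 20 min and the lowest at 40 min, and array 3 was above 0 at 40 min. With potassium-free RNA in Cy5 the median differences were -0.89 (large) and -0.93 (small), and with it in Cy3 0.13 and 0.13. By experiment, with the times matched by letter alone, they were -0.78 and -0.83 in A and 0.01 and -0.01 in B. RPS7B, a small-subunit protein, gave 0.30, -0.47, 0.02 and 0.18 and then -1.32, -0.75, -0.32 and -0.62, and RPL22B, a large-subunit protein, 0.10, -0.35 and 0.29 on the 3 arrays with a value and then -1.17, -0.79, -0.34 and -0.71. Many ribosomal proteins are encoded by 2 near-identical copies whose spots may share signal. Translation factors had a median difference of -0.31, which was -0.56 in the Cy5 and -0.04 in the Cy3 orientation.

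Genes for nucleotide synthesis and salvage lay lower at 40 min in part. Over 24 purine and GTP genes tested of 25 the median difference was -0.50. In 7 the 40 min arrays lay entirely lower, against 8.21% of all genes, and 4 passed as lower at 40 min, against 4.34%. IMD4, an IMP dehydrogenase of a closely similar gene family, which opens the branch to GTP, gave -0.06, -0.28 and -0.59 on the 3 arrays with a value at 20 min and -1.80, -1.63, -1.61 and -1.72 at 40 min, a difference of -1.44 ± 0.39. HPT1, which salvages hypoxanthine and guanine, gave -1.22, -1.23, -0.20 and -0.12 and then -1.96, -1.84, -2.56 and -1.63. It was already low in experiment A at 20 min, and its difference was -1.30 ± 0.37. AAH1, adenine deaminase, had a difference of -1.52 ± 0.77 with arrays that overlapped. URA7, CTP synthase, gave -0.33, -0.44, 0.12 and -0.03 and then -1.72, -1.85, -2.01 and -1.49, a difference of -1.60 ± 0.65. GFD2 had the lowest difference of the genes without overlap, with -0.51, -1.001, 0.94 and 0.49 at 20 min and -2.26, -2.77 and -1.22 on the 3 arrays with a value at 40 min. YGR160W, kept by its ID because the reference table holds no symbol for it, had -1.58 ± 0.33.

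Histone genes lay near 0 at 20 min and below it at 40 min. All 10 listed were tested, with a median difference of -0.62. At 40 min 8 lay entirely lower, against 8.21% of all genes, and 5 passed as lower, against 4.34%. The list median per array was 0.20, -0.29, -0.27 and -0.04 at 20 min and -0.91, -0.79, -0.56 and -0.80 at 40 min, without overlap. HHF2, one of 2 genes for histone H4, gave 0.03, 0.08 and 0.00 on the 3 arrays with a value at 20 min and -1.12, -1.15, -1.03 and -1.21 at 40 min. These are the tightest values of the histones named, its difference was -1.17 ± 0.26, and its adjusted p with the random block was 0.0191. HTB2, for H2B, had a difference of -1.33 ± 0.47 and HTA2, for H2A, -1.30 ± 0.43. Both genes of each histone pair are near copies, so their spots may share signal.

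Genes of G1 and S phase had medians below 0 at both times. Over 24 genes of the G1 cyclins and Start tested of 27 the median ratio was -0.26 and then -0.25, and the median difference was -0.27. At 40 min 9 passed as lower and 1 as higher, against 4.34% and 6.18% of all genes. PCL1, a G1 cyclin of the kinase Pho85, gave -1.04, -0.92 and -1.44 on the 3 arrays with a value and then -2.25, -1.56, -2.33 and -2.54, a difference of -1.06 ± 0.41. For DNA replication and cohesion the median difference over 35 tested of 49 was -0.20, which was 0.10 after scaling to the same spread. MCD1, the cohesin subunit that closes the ring, was past the test at 20 min with -2.74, -2.13 and -1.81 on the 3 arrays with a value and at 40 min with -2.22, -1.97, -3.29 and -2.65, a difference of -0.18 ± 0.48, or 1.16 after scaling. CDC21, thymidylate synthase, had a difference of -0.84 ± 0.27.

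Transporters of the plasma membrane included genes with ratios above 0 at 20 min and below it at 40 min. HXT3, a low-affinity glucose transporter, was above 0 on every array at 20 min (1.51, 1.46, 0.70 and 0.68), and gave -0.13, 0.02, -0.82 and -0.31 at 40 min. The difference was -1.39 ± 0.34, with an adjusted p of 0.376, or 0.0147 with the random block. Hexose transporters are similar in sequence, so spots may share signal. HXT2, a high-affinity glucose transporter, gave 0.82, 0.43, 0.73 and -0.11 and then -0.11, 0.05, -2.56 and -2.09, with experiment A near 0 at 40 min and experiment B far below it. Of 13 hexose transport and phosphorylation genes tested of 24, the median difference was -0.47 and 2 lay entirely lower, against 8.21% of all genes. ATO3, which is thought to export ammonium, was above 0 on all arrays at 20 min (0.95, 0.38, 0.89 and 0.88) and below 0 on all at 40 min (-0.94, -0.36, -0.41 and -0.14), a difference of -1.24 ± 0.30. AQR1, an exporter of amino acids and drugs, had means of -1.33 and -2.48. GAP1, the general amino acid permease, was below 0 on all 8 arrays and gave -1.97, -2.31, -1.87 and -2.36 and then -0.53, -0.54, -1.70 and -2.25, where experiment A lay closer to 0 than experiment B at 40 min. TPO2, a polyamine exporter, passed at both times with means of 1.12 and 0.63.

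Among the remaining lists, genes of mating and the pheromone response lay higher at 40 min in 26 of 29 tested of 40, with a median of 0.31, and 6 lay entirely higher, against 6.92% of all genes. At 40 min 7 of them were higher in potassium-free cells, against 6.18%. The retrograde list had a median difference of 0.28 over 15 tested, and glycerol, pentose phosphate and calcineurin genes had 0.13, 0.16 and 0.18. By dye these 3 were 0.00, -0.37 and 0.00 with potassium-free RNA in Cy5 and 0.57, 0.62 and 0.43 with it in Cy3. After scaling to the same spread the pentose phosphate list was at -0.07. Ergosterol synthesis had -0.19, which turned to 0.08 after scaling to the same spread. Median differences of 0.25 were found for nitrogen catabolite and ammonium genes, 0.10 for mitotic genes, 0.11 for the mitochondrial ribosome and 0.10 for glycolysis. The lists of amino acid synthesis (0.05), iron uptake (0.04), the cell wall (0.02), the vacuolar proton ATPase (0.08), phospholipid synthesis (-0.08), amino acid and polyamine export (-0.12) and the regulators of ribosome genes (0.06) had medians close to that of all genes. For amino acid synthesis this median lay between opposite values: -0.23 in experiment A and 0.24 in B, -0.25 with potassium-free RNA in Cy5 and 0.27 with it in Cy3, and -0.26 after scaling. The export list was at -0.35 over genes with values on all 4 arrays at both times.

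Few genes had opposite signs at the 2 times on every array: 38 lay below 0 on all arrays at 20 min and above 0 on all at 40 min, and 26 did the opposite. Of the first, 7 had a difference of at least 1 (ALD3, TFS1, HSP12, SSA4, GAD1, GDB1 and GRE3), and of the second, 3 had -1 or less (CUS2, CBF5 and ATO3). These 10 were named for this pattern after their values were seen.

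**Figure D4:**
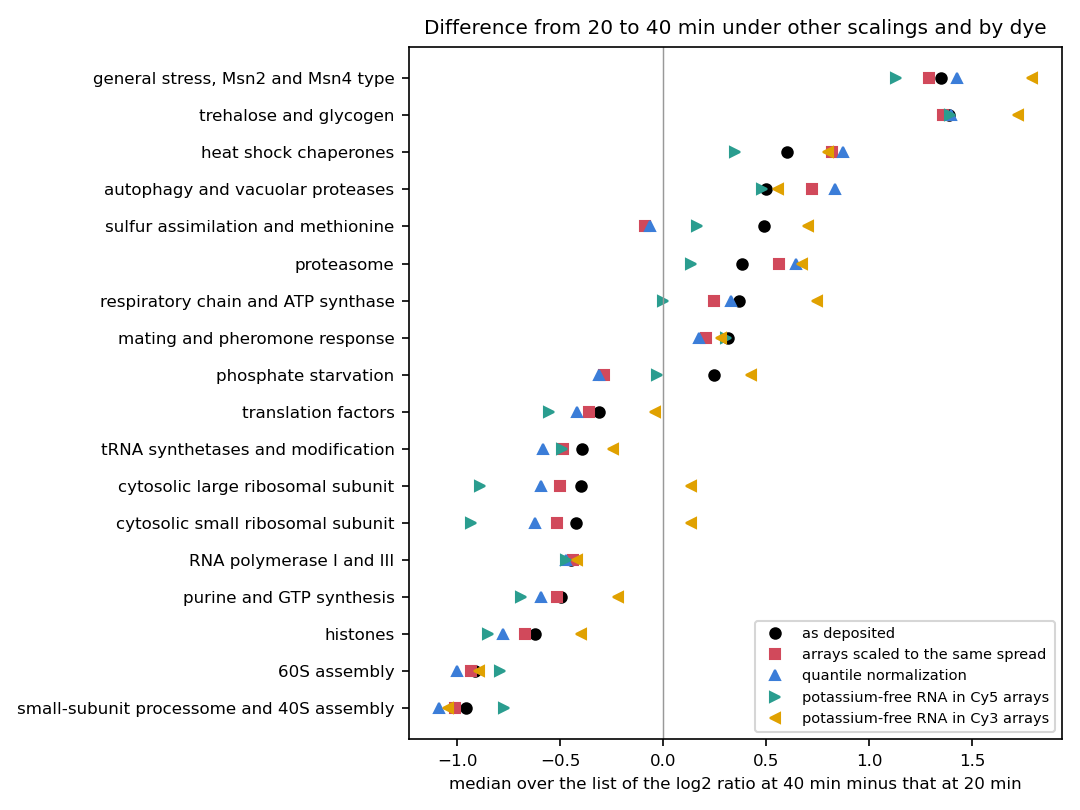
Median over each gene list of the log2 ratio at 40 min minus that at 20 min, for the values as deposited, for arrays scaled to the same spread, for quantile normalization, and within the arrays of each dye orientation. The general stress list stays between 1.13 and 1.79 and 60S assembly between -1.001 and -0.79, while sulfur, phosphate and ribosomal protein lists fall on both sides of 0.

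The sampling times on either side show where the step stands. The values at 10 min rest on 2 arrays, taken as 1 experiment. At 10, 20, 40, 60 and 120 min the stress list had median ratios of 0.38, 0.12, 1.58, 2.49 and 1.83 in turn. For 60S assembly it was -0.10, -0.13, -1.04, -1.68 and -0.87 at the same times. From 20 to 60 min the histone list went through -0.13, -0.73 and -1.73. Over the same times the large ribosomal subunit had 0.15, -0.24 and -1.80, so that the larger part of its shift came after 40 min. Sulfur genes stood at 0.92 after 10 min and then at 1.12, 1.40 and 2.17 by 60 min. The differences between 40 min and these other times were not tested here.

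**Figure D5:**
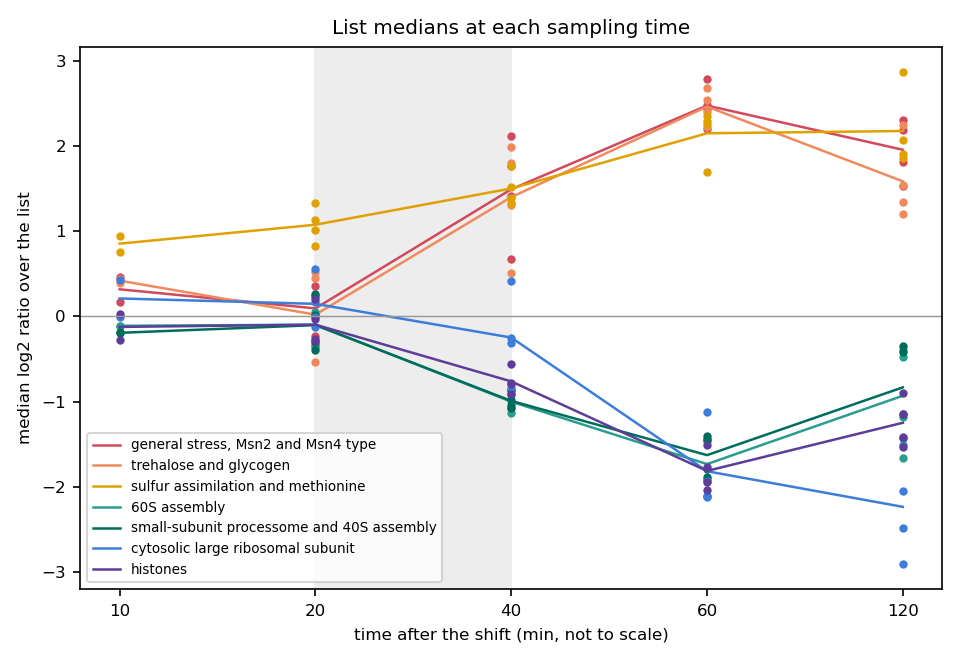
Median log2 ratio (potassium-free over KCl) of 7 gene lists at each time after the shift, with a point for each array, a line through the mean of the arrays and the step from 20 to 40 min shaded; the time axis is not to scale. Stress and assembly lists lie about 0 at 20 min and apart from 0 at 40 min. The trehalose list runs from -0.53 to 0.52 at 20 min and lies above 0 at 40 min. Sulfur genes lie above 0 from 10 min on, and the large ribosomal subunit spreads from -0.84 to 0.41 at 40 min.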

How the data were processed

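Messenger RNA of potassium-free and KCl cultures was compared on 2-colour spotted arrays. Per the labels, 8 µg of RNA was labelled indirectly, and spots smaller than 120 µm or dimmer than 100 intensity units were dropped. The deposited values are 1 ratio per gene and array, taken here as log2 and as already turned the same way across dye swaps. Their log base was inferred from the range of the values and their direction from the word order of the titles; neither is stated. How background was corrected or arrays were normalized is not given in the sources used here, nor is a genome build. RefSeq locus tags (assembly R64) gave symbols to 5644 IDs as written and to 18 more in capitals; the other 550 are named by ID.

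Per the labels, there were 2 independent experiments, each dye-swapped, and each time had 4 arrays except 10 min. That time had 2 arrays, taken as 1 experiment. The labels do not pair the arrays: 1 with 2 (experiment A) and 3 with 4 (experiment B) were averaged. R 4.3.3 and limma 3.58.1 fitted a mean for every time to the 9 experiment values of the series, without further normalization. The contrast was 40 minus 20 min, two-sided, with Benjamini-Hochberg adjustment over 4237 genes and a threshold of 0.05 (prior degrees of freedom 3.77, residual 4). With 2 experiments per time, the number of experiments limits the precision. The procedure was tested on simulated data.

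The 41 gene lists and the genes named were chosen with earlier results of these data known. Genes were named by rule: the 12 highest and 12 lowest differences without overlap between arrays, the 3 largest of each list, genes past the threshold at 20 min, and a few fixed genes. Tried as well were another pairing, single arrays as replicates, a random block, a dye term, replicate blocks, 3 scalings, 2 filters, a fit of 20 and 40 min alone, a robust prior, 2 thresholds and leaving out each array or experiment. Added after seeing the data were each dye orientation alone and genes with values on all 18 arrays. Promoter motifs were not analysed here.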

Additional observations from a re-analysis of the deposited data

Results flagged for a closer look

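Of the genes described above with their values, those with ratios of one sign on all arrays at 20 min and of the opposite sign on all at 40 min were ALD3, with a difference of 2.97, TFS1 with 2.79, HSP12 with 2.56, SSA4 with 2.55, GAD1 with 2.02, GDB1 with 1.84 and, downward, ATO3 with -1.24. The difference itself was tested in limma and passed in none of them. The list of tRNA synthetases and modification enzymes had medians above 0 on all arrays at 20 min and below 0 on all at 40 min, and the mean of its array medians differed by -0.48; that difference was not tested.

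Single arrays stood far from the other 3 of their time in 5 of 233 groups of 4 arrays looked at, and chance flags about 1 group in 20. At 20 min these were RCN2 at 0.47 (others -0.30 to -0.21), STR3 at 5.31 (others 3.24 to 3.54), ATO3 at 0.38 (others 0.88 to 0.95), YGR160W at -1.17 (others 0.05 to 0.25) and the median of the G1 cyclins and Start list at -0.51 (others -0.22 to -0.16).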

How the results depend on the processing

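Counts of genes past the threshold are given for 40 minus 20 min, 20 min against 0, 40 min against 0, and for genes that pass the difference and 40 min but not 20 min. As reported they were 0, 23, 446 and 0. They were 302, 138, 1302 and 266 with arrays 1 and 3, and 2 and 4, paired. The correlation within a pair was estimated over all genes after the mean of each time was removed. It was -0.251 in that pairing, against 0.262 in the pairing used. Removing the mean ties the 2 values to each other, so they do not decide the pairing. With each array as a replicate they were 195, 124, 1285 and 166, with the experiment as a random block 59, 76, 903 and 47, and with a dye term 152, 116, 1240 and 131. The last 3 fits treat dye swaps of the same RNAs as separate values in whole or in part.

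Whether the array numbers pair the samples between times is not stated. Deviations of same-numbered arrays from their time's mean correlated with r = -0.225, 0.077, -0.035 and 0.368. For arrays of different numbers r ran from -0.317 to 0.408, so these values do not decide it. With the array number as a replicate block the counts were 184 (110 higher, 74 lower), 134, 1232 and 154, and with the experiment as a block 0, 26, 419 and 0.

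The count for the difference was 0 under median centring, scaling to the same spread, quantile normalization, both filters, the robust prior, adjusted p of 0.01 and 0.1, the fit of 20 and 40 min alone, and with any 1 array or experiment left out. Scaled to the same spread 341 genes passed at 20 min (178 higher, 163 lower) and 732 at 40 min (373 and 359). With quantile normalization these were 436 (209 and 227) and 794 (389 and 405), against 21 higher and 2 lower at 20 min and 262 and 184 at 40 min as reported. The fit of 20 and 40 min alone gave 55 and 978. At an adjusted p of 0.01 there were 11 and 71, and at 0.1 838 at 40 min. With 1 array or experiment left out, the counts ran from 1 to 24 at 20 min and from 27 to 525 at 40 min.

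After scaling to the same spread the median differences of the sulfur (-0.0876), phosphate (-0.29), export (0.0246), ergosterol (0.0823), amino acid (-0.26), DNA replication (0.10), phospholipid (0.13), pentose phosphate (-0.0732) and glycolysis (-0.0607) lists changed sign, as did the differences of MET3 (-0.15), MET14 (-0.36), MET16 (-0.36), MET28 (-0.29), MET1 (-1.62), CHA1 (0.71), PYC1 (-0.14), PHO84 (-0.57), PHO5 (-0.71), PHO11 (-0.83), PHO12 (-0.94), YRO2 (-0.85), MCD1 (1.16) and ICY1 (-0.48). With quantile normalization the sign changed in the sulfur (-0.0622), phosphate (-0.31), ergosterol (0.0596), amino acid (-0.26), pentose phosphate (-0.11), glycolysis (-0.07), phospholipid (0.15), DNA replication (0.00891) and ribosome gene regulator (-0.0223) lists and in MET1 (-1.01), CHA1 (0.25), PHO84 (-0.60), PHO5 (-0.49), PHO11 (-0.59), PHO12 (-0.66), YRO2 (-0.34), MCD1 (0.83) and ICY1 (-0.31). With potassium-free RNA in Cy5 alone it changed in the phosphate (-0.0305), respiratory (-0.00325), redox (-0.0455), pentose phosphate (-0.37), amino acid (-0.25), vacuolar ATPase (-0.20), mitochondrial ribosome (-0.20), iron (-0.13), glycolysis (-0.096), cell wall (-0.0257) and glycerol (-0.003) lists. With it in Cy3 alone it changed in the large (0.13) and small (0.13) ribosomal subunit and phospholipid (0.18) lists. With values on all 4 arrays at both times it changed in the phospholipid (0.0158) and iron (-0.0321) lists. HIS3, the single tested marker gene of the strain, was at -0.0902 scaled, -0.13 with quantile normalization and -0.38 in Cy5 alone, against 0.27 as reported, and ran from -0.44 to 0.99 with 1 array or experiment left out. TRK1 was -0.0025 in the other pairing. With 1 array or experiment left out, values fell on both sides of 0 in STR3 (-0.95 to 0.30), TRK1 (-0.16 to 0.31), MMP1 (-1.04 to 0.0678), DLD3 (-0.77 to 0.27), YLR108C (-0.62 to 0.16), MET1 (-0.0773 to 0.66), and MCD1 (-0.62 to 0.26). The same held for the hexose (-0.65 to 0.14), amino acid (-0.27 to 0.30), phospholipid (-0.31 to 0.0855), potassium transport (-0.0878 to 0.24), iron (-0.14 to 0.14), cell wall (-0.0678 to 0.15), pentose phosphate (-0.0568 to 0.43), vacuolar ATPase (-0.0769 to 0.25), glycerol (-0.0108 to 0.41), mitochondrial ribosome (-0.00463 to 0.22) and ribosome gene regulator (-0.0411 to 0.15) lists. The cause was not tested. None of these genes passed the test of the difference in the fit reported. Over the alternatives run, the adjusted p of the difference ran from 0.00127 to 0.975 in NQM1, 0.00114 to 0.979 in TFS1, 0.00136 to 0.975 in SER3, 0.00136 to 0.979 in NCE103, 0.00345 to 0.979 in NOG2, 0.00451 to 0.979 in HHF2 and 0.00359 to 0.975 in HXT3.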
